A study of Mus musculus with 2 samples.

Results

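The 8 genes described here are B cell identity genes: Cd79a, Cd79b, Cd22, Cd37, Pou2af1, Spib, Igj (now Jchain) and Faim3 (now Fcmr). They were chosen by name, and every array probe that carries one of these names was taken, which gave 11 probes for the 8 genes among 27845 gene names on the array. Expression was measured in thymus of 6-month-old mice on a C57BL/6 background, either Pla2g10-Tg/+, which overexpress the group X secreted phospholipase A2, or littermate controls without the transgene. Each genotype was represented by a pool of RNA from 4 mice, and both pools were hybridised together on 2 two-colour arrays. The transgenic pool carried the red dye on array 1 and the green dye on array 2. The sources used here do not give the promoter of the transgene. Nothing in the labels says that the arrays hold separate pools, so they were counted as 1 pair of pools measured in both dye orientations. Errors are therefore the SD between the arrays (n = 2 arrays), which is technical, and no test across animals was made.

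B cells are lymphocytes that recognise antigen through membrane immunoglobulin, which signals through a partner made of CD79A and CD79B. Most develop in bone marrow, but the thymus holds a small resident B cell population, mainly in the medulla, that presents antigen to developing T cells. Cells that go on to secrete antibody become plasma cells, in which the joining chain links antibody units into polymers. In whole thymus these transcripts are diluted by those of thymocytes, and fewer B cells cannot be told apart from less B cell RNA per cell.

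No difference between the genotypes in the 8 B cell genes reached the sizes set for a call, and most of their probes could not be tested. Testing required that the scanner software flagged a probe as well above background in both arrays' channels of at least 1 genotype. This held for 3 of the 11 probes (27.3%), for Cd79b, Pou2af1 and 1 of the 2 Igj probes, close to the 29.7% of all 41174 probes. All 3 were well above background in all 4 channels. Another 5 probes, all those of Cd79a, Cd22, Spib and Faim3, were well above background in no channel, which is 45.5% of the 11 against 64.6% of all probes. The remaining 3 probes, both of Cd37 and the other one of Igj, were well above background in 1 or 2 channels.

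The label of these genes was set against a wider set of 10 B cell markers. Of these, Cd79b alone was tested. Cd79a, Ms4a1 (which encodes CD20), Pax5, Ebf1, Cd22, Blk, Fcer2a and Cr2 had no probe well above background in any channel. The summed level of the tested B cell markers is thus that of Cd79b, at 181 and 171 in the transgenic channels and 163 and 159 in the control channels after normalization between arrays. The 8 genes are therefore described by name and not as a measure of B cells.

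Over the whole array, the red channel had the larger share of probes well above background on both arrays. It was 34.0% for the transgenic pool on array 1 and 33.1% for the control pool on array 2, against 28.8% and 28.3% in the green channels. After turning array 2, the log2 ratios of the arrays correlated at r = 0.292 across the 12235 tested probes, which are not independent replicates. The single Pla2g10 probe was well above background in 0 of 4 channels, with a log2 ratio of -0.04 ± 0.03. Whether the transgene includes the sequence under this probe is not stated, so it does not check the genotype labels.

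**Figure D1:**
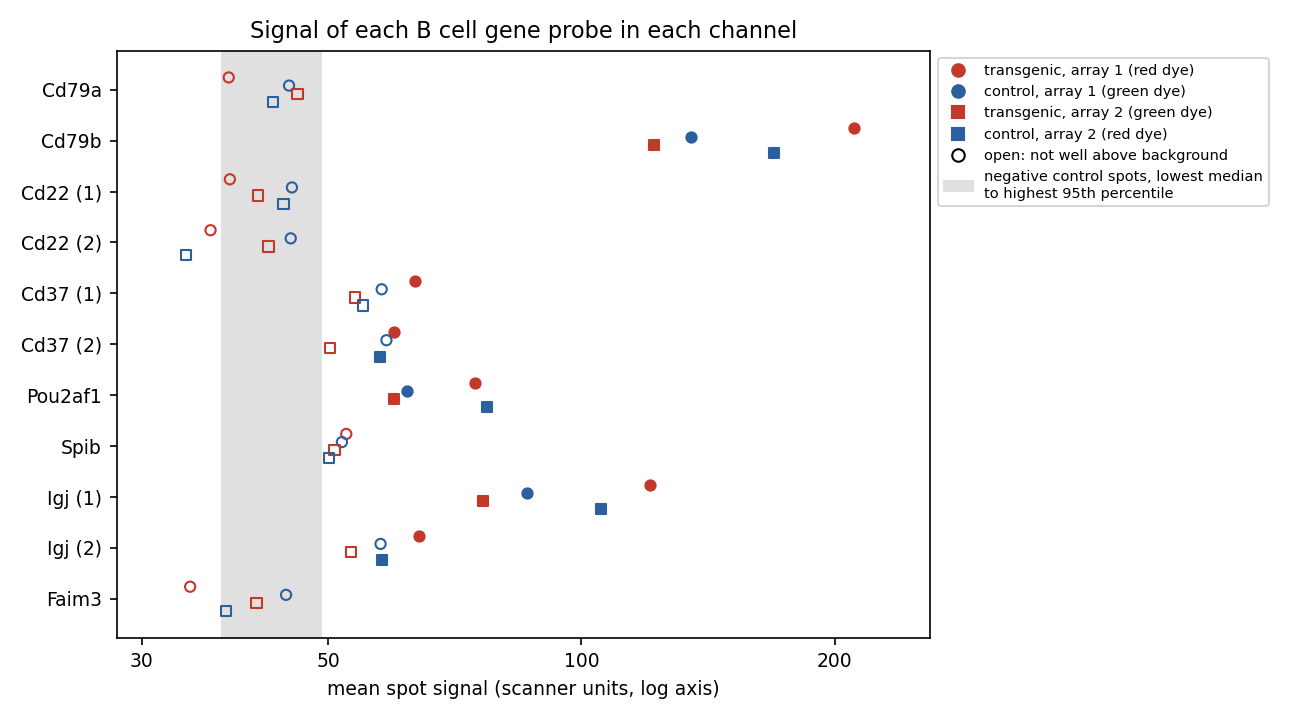
Mean spot signal (scanner units, log axis) of the 11 probes in the 4 channels, with red for the transgenic and blue for the control pool, circles for array 1 and squares for array 2. Filled symbols are well above background and the grey band covers negative control spots. The band runs from the lowest median to the highest 95th percentile of the 4 channels. The probes of Cd79b, Cd37, Pou2af1, Spib and Igj lie above it, Cd79a, Cd22 and Faim3 lie in or below it, and the signals of different probes cannot be set against each other.

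CD79A and CD79B are the signalling chains of the B cell receptor. The Cd79b probe (transcript NM_008339, mm8 chromosome 11, 106127556 to 106127615) read 211 in the transgenic and 135 in the control channel of array 1, and 122 in the transgenic and 169 in the control channel of array 2, over local backgrounds of 35 to 36. The red channel was the brighter one on each array, whichever pool it held. After correction for this dye difference by loess, the log2 ratio of transgenic over control was 0.15 on array 1 and 0.10 on array 2, or 0.13 ± 0.03, a level 1.09 times that of the control pool. The ratio was positive on both arrays, and 85.7% of all tested probes had a lower mean ratio. It was not called: the larger rule asks for a mean of at least 1 and at least 0.5 on each array, and the smaller one for at least 0.25 on each array.

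The offset of 50 that was added to each channel shrinks such ratios. With an offset of 0, Cd79b read 0.19 and 0.18 on arrays 1 and 2, and the scanner software's own log ratios gave 0.20 and 0.21, a level 1.15 times that of the control pool. With median centring in place of loess, the arrays read 0.57 and -0.39, but the median of all tested probes then stood at 0.35 and -0.41. Set against those medians, Cd79b was at 0.22 and 0.02. limma's moderated test, in which each array was 1 measurement, gave Cd79b an adjusted p of 0.646, and it covers only the spread between arrays.

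The Cd79a probe (NM_007655, mm8 chromosome 7, 24608094 to 24608351) was not well above background in either pool. Its transgenic channels read 38.1 and 46.0 and its control channels 44.9 and 43.0 on arrays 1 and 2, where the local background was 34 to 35. On both arrays the green channel was the higher one, and the signals of the pools overlapped. Negative control spots, which match no transcript, had medians of 37.5 (red) and 44.7 (green) on array 1 and 37.4 (red) and 42.0 (green) on array 2. The signals of Cd79a lay above the 95th percentile of these spots in both channels of array 2 and in neither channel of array 1. Cd79a thus cannot be followed beside Cd79b at this signal.

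**Figure D2:**
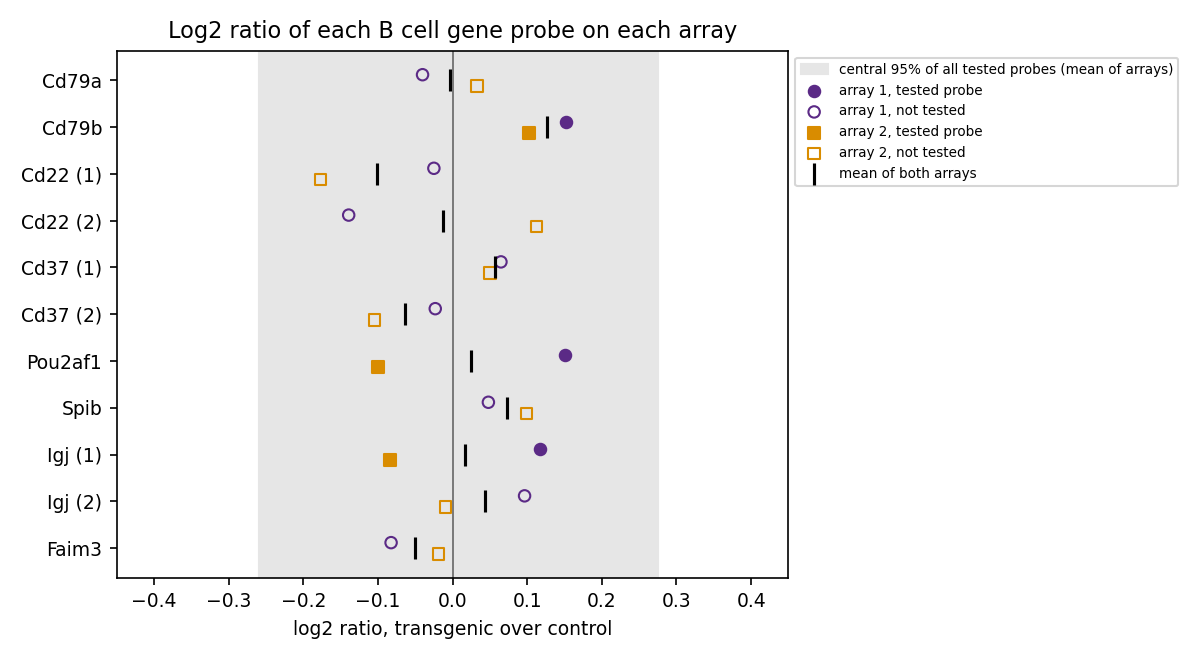
Log2 ratio of transgenic over control for each of the 11 probes on array 1 (circles) and array 2 (squares), with filled symbols for tested probes and a black bar at the mean. The grey band holds the central 95% of all tested probes, from -0.26 to 0.28, and every mean of the 11 probes lies in it.

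CD22 is a sialic acid-binding receptor that dampens B cell receptor signals. Its probes (NM_009845, mm8 chromosome 7, 30575331 to 30575390, and between 30584884 and 30586208) were not well above background in any channel. The first read 36.2 and 42.4 in the transgenic and 45.1 and 33.8 in the control channels of arrays 1 and 2. The second read 38.2 and 41.2 in the transgenic and 45.3 and 44.2 in the control channels. Of the 8 signals, 1 lay above the 95th percentile of negative control spots in its channel, the control signal of the second probe on array 2. Their log2 ratios were -0.01 ± 0.18 and -0.10 ± 0.11, values at background from which no direction was read.

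CD37 is a tetraspanin of the B cell surface that is also present on other leukocytes. Its probes, 45103452 to 45103511 and 45103528 to 45103587 of mm8 chromosome 7 (NM_007645), differed in sign. The first, well above background in the red channel of each array and in neither green one, read 59.9 and 50.2 in the transgenic and 58.6 and 57.5 in the control channels of arrays 1 and 2, with a log2 ratio of -0.06 ± 0.06. The second, well above background only in the transgenic channel of array 1, read 63.3 and 53.8 in the transgenic and 57.9 and 55.0 in the control channels, with a ratio of 0.06 ± 0.01. Neither probe was tested, and the difference between them is larger than either ratio.

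Being well above background in the red dye alone on both arrays held for 957 of the 41174 probes of the whole array. It held for 2 of the 11, the first Cd37 probe and the Igj probe that was not tested. In the green dye alone it held for 0 of the 11 and for 1 probe of the array. Picked by this pattern, such probes were by definition detected with the dye, and their detection does not separate the pools.

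POU2AF1 (OBF-1, also OCA-B) is a coactivator that joins the octamer-binding factors POU2F1 and POU2F2 on immunoglobulin and other B cell promoters. Its probe (NM_011136, mm8 chromosome 9, 50992233 to 50992292) read 74.8 in the transgenic and 62.0 in the control channel of array 1, and 59.9 in the transgenic and 77.2 in the control channel of array 2. Each pool was the higher one on 1 array, and each time it was the pool in red. The log2 ratio was 0.15 on array 1 and -0.10 on array 2, or 0.02 ± 0.18, and limma's adjusted p was 0.956. The sign differed between the arrays with an offset of 0 as well, at 0.41 and -0.27, and with the software's log ratios, at 0.29 and -0.30. Of its octamer partners, Pou2f1 was at 0.05 ± 0.03 and Pou2f2 was well above background in no channel.

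Spi-B is an ETS family transcription factor of B cells, plasmacytoid dendritic cells and some epithelial cells of the thymic medulla. Its probe (NM_019866, mm8 chromosome 7, 44394318 to 44394377) read 52.5 and 50.9 in the transgenic and 51.9 and 50.1 in the control channels of arrays 1 and 2. It was well above background in 0 of 4 channels, yet each of the 4 signals lay above the 95th percentile of negative control spots in the same channel, which ran from 41.2 to 49.0. The log2 ratio was 0.05 on array 1 and 0.10 on array 2, or 0.07 ± 0.04, and the software's log ratios were 0.24 and 0.23. The transgenic signal was the higher one on both arrays, by less than 1 unit each time, and the probe was not tested. Spi1, which encodes the related factor PU.1, was well above background in no channel.

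The joining chain, encoded by Igj, links units of IgM and IgA and is made by antibody-secreting cells. The tested Igj probe (NM_152839, mm8 chromosome 5, 89595455 to 89595514) read 121 in the transgenic and 86.3 in the control channel of array 1, and 76.4 in the transgenic and 105 in the control channel of array 2. As with Pou2af1, the pool in red was the brighter one on each array. The log2 ratio was 0.12 on array 1 and -0.08 on array 2, or 0.02 ± 0.14, with an adjusted p of 0.968 in limma's test. The other probe, at 89595625 to 89595684, read 64.2 and 53.2 in the transgenic and 57.7 and 57.8 in the control channels, with a ratio of 0.04 ± 0.07. It was not tested, and it too was positive on array 1 and negative on array 2.

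Faim3 encodes the Fc receptor for IgM, found on B cells and on some T cells. Its probe (NM_026976, mm8 chromosome 1, 132708225 to 132708284) read 34.3 and 41.1 in the transgenic and 44.5 and 37.8 in the control channels, where the local background was 34 to 36. None of the 4 signals lay above the 95th percentile of negative control spots. The ratio of -0.05 ± 0.05 is a value at background.

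Counted over the 3 tested probes, 0 were at least 2-fold different, against 0.0327% of the 12235 tested probes. At least 0.25 higher on each array were 0 of 3, against 1.6%, and at least 0.25 lower were 0 of 3, against 1.21%. limma's test called 0 of the 3 at an adjusted p under 0.05, against 1.26% of all tested probes, and 0 of the 3 at an unadjusted p under 0.05, against 11.7%. With 3 probes, a count of 0 is near each of these shares. Above 0 on both arrays was 1 of 3, Cd79b, against 27.5% of all tested probes, and below 0 on both arrays were 0 of 3, against 29.4%. In the dye contrast, where array 2 keeps its red over green sign, Pou2af1 and Igj were positive on both arrays, as were 23.6% of all tested probes. The median log2 ratio of the 3 genes was 0.02, at 0.15 on array 1 and -0.08 on array 2, and the median of all 9397 tested genes was -0.002. With 3 of 8 genes measured, the median covers less than the list.

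**Figure D3:**
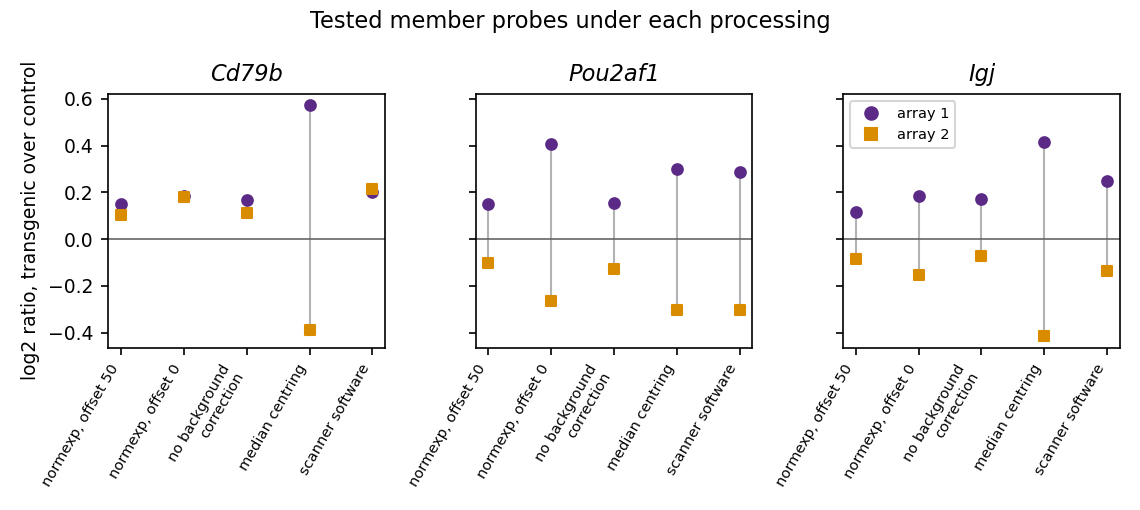
Log2 ratio of transgenic over control for the 3 tested probes on array 1 (circles) and array 2 (squares) under 5 ways of processing. Cd79b is above 0 on both arrays in all but median centring, and Pou2af1 and Igj have opposite signs on the arrays in all 5.

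The B cell receptor and co-receptor list held 12 genes, of which 4 were tested, with a median of 0.05. Beside Cd79b these were Cd81, a co-receptor partner, at -0.05 ± 0.19, Ptprc, which encodes the phosphatase CD45, at 0.08 ± 0.12, and the inhibitory receptor gene Pirb at 0.03 ± 0.07. These 3 genes are not particular to B cells, and each had opposite signs on the arrays by its brightest tested probe. The 4 tested probes of Ptprc ran from -0.09 to 0.08. Cr2, which encodes a complement receptor of B cells, was well above background in no channel.

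Downstream of the receptor, 16 of 23 signalling genes were tested, with a median of -0.05. Of these, 5 were above 0 on both arrays and 7 below, against 28.3% and 29.1% of all tested genes. Blnk, the adaptor that links the kinase SYK to phospholipase C, had the highest ratio, with 0.41 on array 1 and 0.26 on array 2, or 0.34 ± 0.11. Cd2ap, an adaptor of the cytoskeleton, came next at 0.18 ± 0.09, its other tested probe reading 0.02. Blnk was the 1 gene of the list at least 0.25 higher on each array, against 1.68% of all tested genes, and limma's adjusted p was 0.101. None was at least 0.25 lower on each array, against 1.31%. Ptpn6, which encodes the inhibitory phosphatase SHP-1, had the lowest ratio at -0.28 ± 0.09, its other tested probe reading -0.07. Next came Vav1, a guanine nucleotide exchange factor used by T and B cells, at -0.21 ± 0.19, and its other probe read -0.27. Syk itself was at -0.17 ± 0.02 with 1 probe, and Btk and Blk, kinases of B cells, were well above background in no channel.

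Among B lineage transcription factors, 9 of 17 were tested, with a median of 0.03. Of these, 4 were above 0 on both arrays and 3 below, against 28.3% and 29.1% of all tested genes. Irf8, a factor of B cells and dendritic cells, was highest at 0.19 ± 0.06, followed by Bach2, which holds back plasma cell differentiation, at 0.16 ± 0.01. Ikzf3, which encodes Aiolos, was lowest at -0.23 ± 0.04, its other probe reading -0.08, and Bcl6, the germinal centre repressor, was at -0.21 ± 0.10. The factors that commit cells to the B lineage, Pax5 and Ebf1, could not be measured. Ikzf1, Tcf3, Foxo1 and most other tested factors of the list also act in T cells or myeloid cells.

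Of 24 surface and homing genes, 10 were tested, with a median of 0.07. Among them 5 were above 0 on both arrays and 2 below, against 28.3% and 29.1% of all tested genes. Ly6d was highest at 0.24 ± 0.17, and Cd74, the invariant chain of MHC class II, was at 0.22 ± 0.29, with 0.01 on array 1 and 0.42 on array 2. The lowest were Cd5 at -0.23 ± 0.11 and Cd24a at -0.23 ± 0.03, both also made by thymocytes. Which cells of the thymus made the Ly6d and Cd74 transcripts was not tested. Cd37 and Faim3 belong to this list but were not tested.

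Plasma cell genes were tested for 6 of 15, with a median of 0.01. Mzb1, a chaperone of antibody-secreting and marginal zone B cells, was highest at 0.13 ± 0.11, followed by Pdia4, which acts in protein folding, at 0.02 ± 0.05. Xbp1, a secretory pathway factor, was at -0.04 ± 0.08. Edem1, which acts in disposal of misfolded proteins in many cell types, was lowest at -0.51 on array 1 and -0.52 on array 2, although another of its 3 probes read -0.03. Of the 6 tested genes, 1 was at least 0.25 lower on each array, namely Edem1, against 1.31% of all tested genes. Prdm1, Sdc1 and Tnfrsf17, the defining plasma cell markers beside Igj, were well above background in no channel.

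The pre-B cell list had 5 of 11 genes tested, with a median of 0.02. Of these, 2 were above 0 on both arrays and 2 below, against 28.3% and 29.1% of all tested genes. Lef1, a factor shared with T cells, was highest at 0.15 ± 0.07, its other tested probe reading 0.01, and Il7r, the interleukin-7 receptor gene, was at 0.08 ± 0.02. The lowest genes were Dntt (terminal transferase) at -0.41 ± 0.20 and Rag1 (the recombinase) at -0.31 ± 0.04, both shared with immature thymocytes. These 2 of the 5 were at least 0.25 lower on each array, against 1.31% of all tested genes. Igll1, Vpreb2 and Vpreb3, which belong to the surrogate light chain family, were well above background in no channel, and Vpreb1 in 2. Of the germinal centre list, 3 of 10 were tested, with a median of 0.12. These were Bcl6, Fas, a death receptor gene, at 0.14 ± 0.08 and Efnb1, an ephrin gene, at 0.12 ± 0.15. The other tested Fas probe read 0.22. Of the list of octamer, PU.1 or Spi-B target genes, 3 of 11 were tested, with a median of 0.04. They were Cd79b, Bcl6 and the adaptor gene Grap2, at 0.04 ± 0.23, its other tested probe reading -0.24.

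Probes of immunoglobulin loci were read as well, and in whole thymus their values do not show which cells made the transcripts. Of 29 probes with such names, 6 were tested. The heavy chain constant gene Ighm had 2 tested probes, with ratios of -0.34 ± 0.17 and -0.21 ± 0.08, below 0 on both arrays. With median centring, and set against the median of all tested probes, the first read -0.29 and -0.46 on arrays 1 and 2, and the second 0.11 and -0.60. The first probe thus stayed below 0 on both arrays, and the second did not. The light chain probe Iglv1 was at 0.18 ± 0.17, above 0 on both arrays, at 0.30 and 0.06. Under the same median centring, set against the median of all tested probes, it read 0.20 and 0.19. Of the 8 probes assigned to Iglv1, this was the 1 tested. The 3 variable heavy chain probes lay between -0.02 and 0.08, each with opposite signs on the arrays. Near-identical variable segments can share probes.

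**Figure D4:**
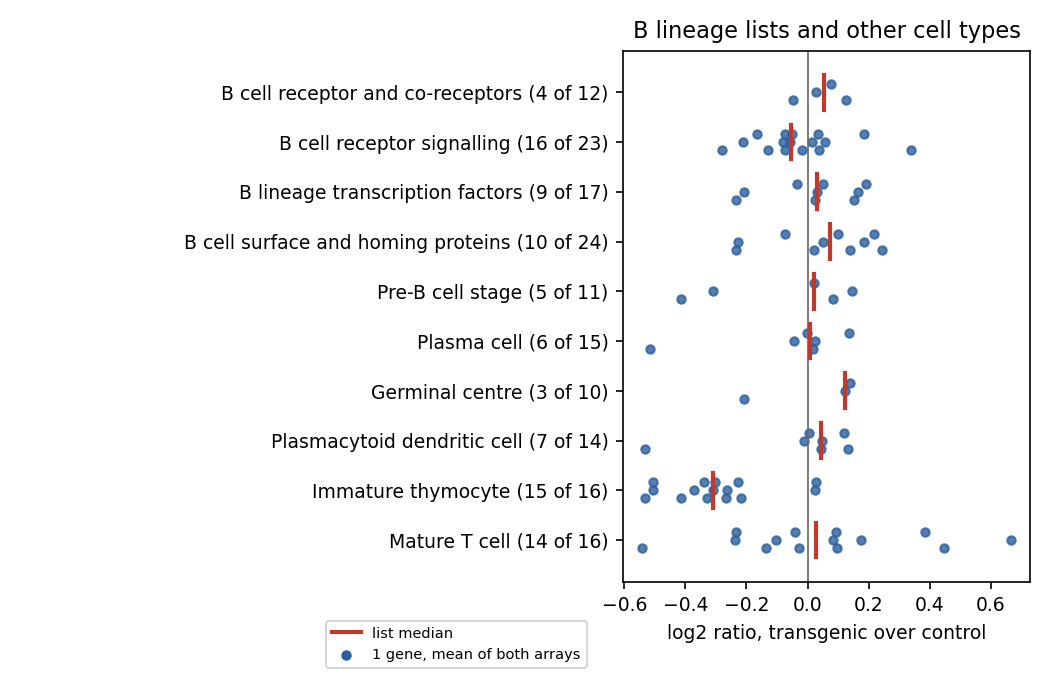
Log2 ratio of transgenic over control (mean of both arrays) for each tested gene of 7 B lineage lists, the plasmacytoid dendritic cell list and 2 thymocyte lists, with the number tested of the number listed and a red bar at each median. The B lineage medians lie between -0.05 and 0.12, while that of immature thymocyte genes is -0.31.

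Together the B lineage lists named 110 genes, of which 52 were tested, with a median of 0.02 (0.01 on array 1 and 0.02 on array 2). Of the 52, 20 were above 0 on both arrays and 15 below, against 28.3% and 29.1% of all tested genes. At least 0.25 higher on each array was 1 of the 52, against 1.68%, and at least 0.25 lower were 3, against 1.31%, namely Dntt, Rag1 and Edem1. Marker lists of several other cell types had medians farther from 0. Of 10 immature thymocyte markers 9 were tested, 8 of them below 0 on both arrays, and the median was -0.33. Their summed level was 20447 and 20435 in the transgenic channels and 26463 and 26767 in the control channels, and Rag2 was well above background in no channel. Fat cell markers had a median of 0.80 over 3 of 5 tested, with Plin1 in no channel. Their sums were 1418 to 1466 in transgenic against 766 to 813 in control channels. Of the 3, Cfd and Car3 were well above background in 2 channels only, those of the transgenic pool. They thus passed the filter through the pool where they were higher, which bears on this median and these sums. Adipoq, well above background in 1 channel, was not tested. Medullary epithelial markers had a median of 0.50 over 4 of 4, with sums of 839 to 841 against 535 to 551. Red cell markers had a median of 0.85 over 3 of 3, with sums of 5019 to 5786 against 2455 to 2663. Plasmacytoid dendritic cell markers had a median of 0.02 over 4 of 7, and Siglech, which defines these cells, was well above background in no channel. Mature T cell markers were at -0.10 over 7 of 8 and macrophage and granulocyte markers at -0.004 over 10 of 11. Of the 10 macrophage and granulocyte markers tested, 4 were above 0 on both arrays, namely Lyz2, S100a8, S100a9 and Camp. Cd68 and C1qb, 2 of the 10, were below 0 on both, against 28.3% above and 29.1% below among all tested genes. The values of the 10 ran from -0.18 to 0.62. The part of these differences in the values of Cd79b and the other B cell genes was not tested.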

How the data were processed

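Per the file headers, Agilent mouse arrays were scanned in 2 dyes and spots were read by Feature Extraction 9.5.1.1. The deposited scanner files give linear mean and local background intensity per spot, and a LogRatio, log10 of red over green processed signal, per the file headers. The authors' series table holds log10 ratios of red over green that match LogRatio, not turned for the dye swap. Flags for spots well above background and for outliers come from the same software and are coded as other values in the deposited files, per the file headers.

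Mean intensities were background-corrected by normexp (offset 50) and loess-normalized within arrays (limma 3.58.1, R 4.3.3), with control and outlier spots at weight 0. Outlier spots, 46 and 37 of 41534, were left out. Replicate spots were averaged, and the sign of array 2 was reversed. Genes outside the 8 were named through RefSeq (GRCm38.p6) by accession, symbol or synonym, and the brightest tested probe stood for a gene. All 8 genes matched by accession. Probe positions are on mm8; exons are not given, since gene models of mm8 were not used here. From each list, up to 2 of the highest and 2 of the lowest tested genes could be named, plus list genes with a role beside the 8; other cell types' lists are mostly given by their medians. Ighm and Iglv1 were named after their values were seen. Members and lists were chosen with earlier results of these data known. Calls were tested on simulated data. limma's moderated test with Benjamini-Hochberg adjustment ran over all tested probes as an alternative. Probe sequences were not used here. One listed gene is not reported here.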

Additional observations from a re-analysis of the deposited data

How the results depend on the processing

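The counts of tested probes at least 2-fold different, and of those at least 0.25 higher or lower on each array, were 0 under the main processing and under all 9 alternatives to it. The count above 0 on both arrays was 1 in the main processing, 0 with median centring and 3 with no filter on dim probes, and 1 to 3 on a single array. The count below 0 on both arrays was 0, but 3 with no filter, and 0 to 2 on a single array. Without the filter the counts cover all 11 probes, and they then include Spib, Cd37, Cd22 and Faim3 probes at or near background. Cd79b ranged from 0.09 with median centring to 0.21 with the software's log ratios or the series table. The median of the members moved by less than the spread between the arrays under each alternative, from 0.002 with median centring to 0.07 with an offset of 0, and was -0.08 on array 2 and 0.15 on array 1 alone. Of 130 list medians under an alternative, 42 moved by more than that list's spread between the arrays. Signal over background limits these data: 5 of 11 probes give no ratio that can be read, and 3 more were detected in the red dye only. Of those 3, 2 were detected so on both arrays and 1 on array 1 alone. Having 1 pool per genotype gives no spread across animals. No paired analysis was possible because no block beyond the array is left: each log ratio already sets the pools against each other within an array.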

Other observations

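Thymic B cells live in the medulla, where epithelial cells and lymphocytes exchange chemokine and tumour necrosis factor family signals. Of 17 genes listed for this exchange, 6 were tested, with a median of 0.15. Ccl21a, a chemokine gene of medullary epithelium, was highest at 0.95 ± 0.08. The array design names its probe Ccl21b, and near-identical gene copies may hybridise to it. Ccl19 was at 0.29 ± 0.44, with 0.61 on array 1 and -0.02 on array 2, its other tested probe reading 0.46. Aire, the regulator of self-antigen expression that thymic B cells can also express, was at 0.19 ± 0.03. Il21r, a cytokine receptor gene of B and T cells, was lowest at -0.43 ± 0.32, and Ltb, a lymphotoxin gene, read -0.29 on array 1 and 0.15 on array 2.

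Plasmacytoid dendritic cells share Spi-B with B cells. The list of plasmacytoid dendritic cell genes, which does not hold Spib, had 7 of 14 genes tested and a median of 0.04. Ccr9, also an immature thymocyte marker, was lowest at -0.53 ± 0.10, and Pltp was highest at 0.13 ± 0.25, followed by Lair1 at 0.12 ± 0.03. The mature T cell list had a median of 0.03 over 14 of 16 and the macrophage and granulocyte list 0.05 over 12 of 13. Their ranges, -0.54 to 0.67 and -0.18 to 0.62, were wide around those medians. The lower end of the mature T cell range was Klf2, whose other tested probe read 0.59. Its upper end was Ms4a4b, whose 4 tested probes ran from 0.25 to 0.67. Both ends of that range thus depend on the probe taken.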
